A study of Mus musculus with 4 samples.

Results

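Claudins are the membrane proteins that build tight junctions, the belts that join neighbouring epithelial cells and set which ions and how much water pass between them. Each claudin spans the membrane and meets a claudin of the next cell through its extracellular loops. Pore-forming claudins open small paracellular channels, sealing claudins narrow the path, and the mix of types differs along the intestine and between crypt and villus. The 10 claudins described here are Cldn1, Cldn2, Cldn3, Cldn4, Cldn5, Cldn7, Cldn8, Cldn12, Cldn15 and Cldn23, listed in capitals in the table (CLDN1 and so on). They were taken by symbol from 23 claudin rows among 29871 rows of the deposited table, and all 10 were found. Cldn2 and Cldn15 were treated as pore-forming and Cldn1, Cldn3, Cldn4, Cldn7 and Cldn8 as sealing. Cldn5, a claudin of blood vessel endothelium, was kept apart, and Cldn12 and Cldn23 were placed in neither group.

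The mRNA came from small intestinal adenomas of mice. The 2 control libraries carried the APC Min/+ genotype, in which a truncating allele of the tumour suppressor Apc leads to adenomas, and the 2 PAF knockout libraries carried PAF KO together with the same APC Min/+ allele. PAF is known from the study as the PCNA-associated factor. Ages, the number of animals behind a library and the way the PAF allele was made are not stated in the labels. Values are FPKM, fragment counts divided by transcript length and by the library total, so that levels can be compared between genes. The worth of 1 fragment at low values put depth at about 13200000 and 17500000 fragments for the controls and 15400000 and 24100000 for the knockouts.

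PAF knockout library 2 stood apart from the others. The median absolute difference over 13716 tested rows was 0.09 on the log2 scale between the control libraries and 0.49 between the knockout libraries. Xist, expressed from the inactive X chromosome of females, read 46.4 FPKM in PAF knockout library 2 and at most 0.00861 in the rest, and the Y-linked Eif2s3y was listed at 0 there and lay between 26.0 and 31.7 elsewhere. PAF itself (row 2810417H13Rik) was at 17.9 and 17.8 FPKM in control libraries, 4.13 in PAF knockout library 1 and 11.4 in PAF knockout library 2. This is 23.2% and 63.9% of control, so PAF transcript was still detected in both libraries labelled PAF KO, and in the second it was only partly lower. The labels do not say which stretch of the gene was removed, which limits what this row can check. As a check of the tissue, 7 of 7 epithelial markers were present in every library, with a sum of 6724 to 6801 FPKM in control libraries and 7858 to 7911 in knockout libraries.

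The starts of 5 claudin genes are shown because their products make up most of the claudin mRNA described below: Cldn4 and Cldn3, neighbours on chromosome 5 that were lower in both knockout libraries, Cldn7 (row CLDN7), which overlapped between the groups, and the pore-forming Cldn2 and Cldn15, which were higher. Each sequence runs 5′ to 3′ from 250 bases before to 50 bases after the start, from RefSeq on GRCm38.p6, a later build than that of the FPKM table. The table of starts held 8 of the 10 genes, and Cldn8 and Cldn23 had no entry. Capitals mark CACCTG or its reverse complement CAGGTG, an E-box bound by Snail-type repressors, and TTTATG or its reverse complement CATAAA, a motif of CDX factors.
Cldn4, chr5:134946885-134947184, strand -: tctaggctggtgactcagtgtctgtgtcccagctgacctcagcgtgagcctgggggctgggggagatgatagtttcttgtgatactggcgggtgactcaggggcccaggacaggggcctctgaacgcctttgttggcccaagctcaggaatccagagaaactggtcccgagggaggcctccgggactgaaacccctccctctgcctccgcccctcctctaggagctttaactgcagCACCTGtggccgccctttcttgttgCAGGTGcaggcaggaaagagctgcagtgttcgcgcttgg
Cldn3, chr5:134985964-134986263, strand +: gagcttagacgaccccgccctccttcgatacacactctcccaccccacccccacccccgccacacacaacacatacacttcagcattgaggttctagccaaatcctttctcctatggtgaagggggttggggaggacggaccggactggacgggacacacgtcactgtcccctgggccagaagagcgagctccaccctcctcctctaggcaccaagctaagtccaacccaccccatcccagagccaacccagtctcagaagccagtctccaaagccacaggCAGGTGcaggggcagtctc
Cldn7, chr11:69965171-69965470, strand +: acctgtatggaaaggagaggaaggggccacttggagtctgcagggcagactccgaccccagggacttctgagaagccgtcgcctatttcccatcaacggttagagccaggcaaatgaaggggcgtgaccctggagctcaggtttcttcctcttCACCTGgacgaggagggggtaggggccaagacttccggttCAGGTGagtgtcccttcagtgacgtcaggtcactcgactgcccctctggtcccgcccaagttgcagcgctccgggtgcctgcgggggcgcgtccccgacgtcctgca
Cldn2, chrX:139800558-139800857, strand +: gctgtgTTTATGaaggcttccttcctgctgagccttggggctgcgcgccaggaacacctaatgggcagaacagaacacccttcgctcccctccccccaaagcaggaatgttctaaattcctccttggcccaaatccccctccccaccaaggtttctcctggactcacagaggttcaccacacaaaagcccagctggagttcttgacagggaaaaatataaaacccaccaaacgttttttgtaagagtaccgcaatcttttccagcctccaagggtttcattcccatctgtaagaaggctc
Cldn15, chr5:136967619-136967918, strand +: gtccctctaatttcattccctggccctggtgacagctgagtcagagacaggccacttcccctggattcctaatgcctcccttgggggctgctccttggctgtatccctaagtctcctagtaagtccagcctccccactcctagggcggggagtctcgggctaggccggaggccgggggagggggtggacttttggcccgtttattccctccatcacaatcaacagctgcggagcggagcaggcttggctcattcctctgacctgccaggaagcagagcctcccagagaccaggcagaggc

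Of the 11 start windows of the 8 genes, 3 held CACCTG or CAGGTG on either strand, and these belonged to Cldn4, Cldn3 and the downstream start of Cldn7. The Cldn4 window held it 2 times, the Cldn3 window 1 time and the Cldn7 window 2 times. Across all 32851 windows of the same length, 20.2% held this motif. TTTATG or CATAAA stood in the Cldn2 window, against 11.9% of all windows. The motif CTTTGA or its reverse complement TCAAAG, bound by TCF/LEF factors of Wnt signalling, stood in 0 of the 11 windows, against 16.0% of all windows. Motifs were read on both strands and did not overlap each other in these windows, and a match describes letters, not binding.

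A few claudins supplied nearly all of the transcript. Together the 10 genes held between 99.1% and 99.6% of the FPKM of all claudin rows in each library. Cldn4, Cldn7, Cldn3 and Cldn2 each averaged over 200 FPKM, Cldn15, Cldn23 and Cldn12 lay between 16.9 and 67.6 FPKM on average, and Cldn5, Cldn1 and Cldn8 lay between 1.36 and 1.45. In the controls the order was led by Cldn4, at 609 ± 3.80 FPKM (SD, n = 2). Cldn7 at 489 ± 23.5 and Cldn3 at 465 ± 18.2 FPKM followed, and their values overlapped. Cldn2 came next at 236 ± 0.281 FPKM, ahead of Cldn15 at 46.2 ± 2.02, Cldn23 at 30.2 ± 2.22 and Cldn12 at 13.6 ± 0.127. The lowest levels, of Cldn1 at 1.96 ± 0.500, Cldn8 at 1.57 ± 0.176 and Cldn5 at 1.52 ± 0.338 FPKM, overlapped each other. In both knockout libraries Cldn7 was highest, and Cldn4 stood in the second place in PAF knockout library 1 and in the fourth in PAF knockout library 2.

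**Figure D1:**
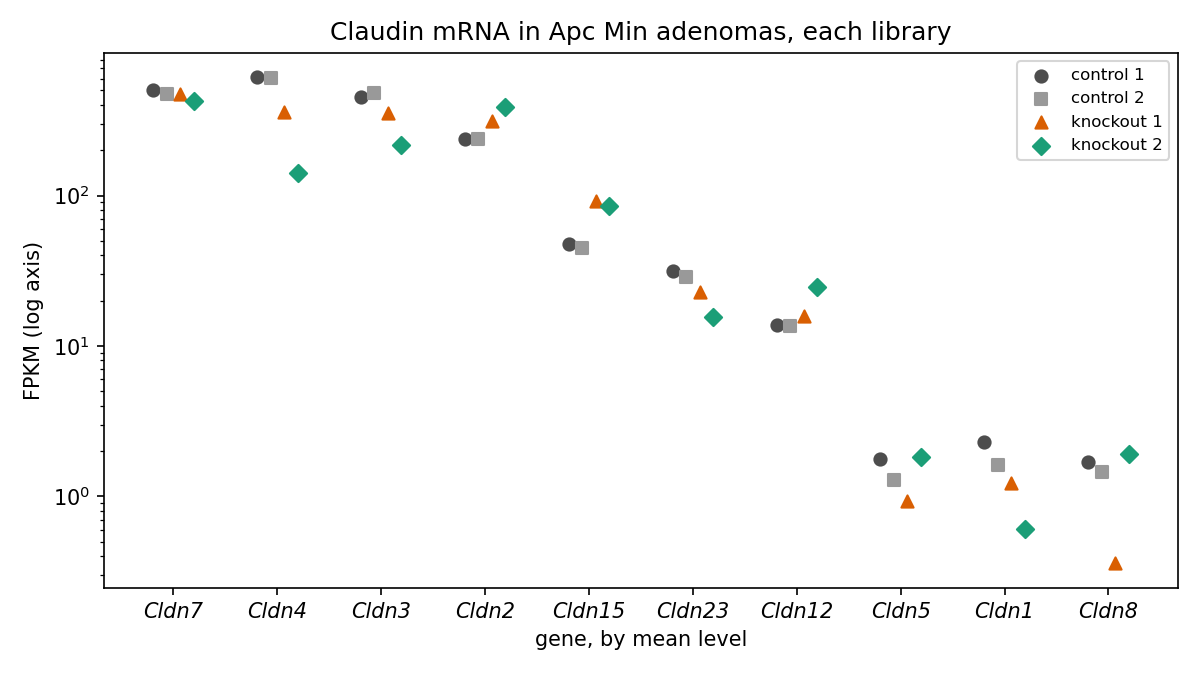
FPKM (log axis) of each claudin in each of the 4 libraries, ordered by mean level. Cldn4 read 611 and 606 FPKM in control libraries against 361 and 141 in knockout libraries, while Cldn15 read 47.6 and 44.8 against 92.6 and 85.4.

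The comparison of genotypes asks which transcripts differ between PAF knockout and control adenomas. Both pore-forming claudins lay higher in each knockout library than in either control, and 3 of 5 sealing claudins lay lower. No single claudin passed the test over all rows. In limma, which estimates each row's spread with help from the others, 0 of 10 claudins had an adjusted p under 0.05, where 0.0729% of all tested rows did, and 1 of 10 had an unadjusted p under 0.05, where 13.2% of rows did. By level alone, 3 claudins had both knockout values above both control values, where 21.5% of tested rows were, and 4 were lower, where 30.2% of rows were. For 10 genes, these counts are near the shares of all rows. With each library centred on its median those shares of rows became 30.2% and 25.6%, and the claudin counts stayed at 3 and 4. The other 3 claudins overlapped between the groups, and under quantile scaling Cldn7 no longer did and was lower. The median log2 fold change was -0.24 over the 10 claudins and 0.0034 over all tested rows. Fits with a single knockout library take the spread from the controls alone and call 61.2% of all rows without PAF knockout library 1 and 20.7% without PAF knockout library 2, and among the claudins they call 7 and 4 of 10.

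Cldn2 (row CLDN2) forms a channel for small cations and water and is a claudin of crypts and other leaky epithelia. It read 236 and 236 FPKM in control libraries, 314 in PAF knockout library 1 and 385 in PAF knockout library 2. Both knockouts were above both controls, by 1.33-fold and 1.63-fold. On the log2(FPKM + 1) scale used throughout, the fold change was 0.56 (SE 0.207, 95% interval -0.03 to 1.14; limma adjusted p = 0.388). Mouse Cldn2 lies on the X chromosome, and the library with Xist was the highest, while PAF knockout library 1, without Xist, was also above the controls. The part of Xist status in the Cldn2 level was not tested.

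Cldn15 (row CLDN15) forms cation channels of the small intestine and supplies sodium to the lumen for nutrient uptake. It read 47.6 and 44.8 FPKM in control libraries and 92.6 and 85.4 in knockout libraries. The groups were well apart and both knockout libraries lay near each other, at 2.004-fold and 1.85-fold of control. Cldn15 had the smallest p of the 10 genes, with a log2 fold change of 0.93 (SE 0.161, 95% interval 0.47 to 1.39; unadjusted p = 0.00522, limma adjusted p = 0.248).

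Cldn4 (row CLDN4), a sealing claudin that limits sodium passage and is bound by an enterotoxin of Clostridium perfringens, had the largest fold change of the 10 genes. It read 611 and 606 FPKM in control libraries, 361 in PAF knockout library 1 and 141 in PAF knockout library 2. Both knockouts were below both controls, and they differed widely from each other, at 59.3% and 23.1% of control. Its fold change on the log2 scale was -1.43 (SE 0.524, 95% interval -2.91 to 0.055; limma adjusted p = 0.388), and it was -0.75 without PAF knockout library 2 and -2.11 without PAF knockout library 1. About 6148 to 19288 fragments stood behind each value, so counting error was small beside these differences.

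Cldn3 (row CLDN3), also a sealing claudin and enterotoxin receptor, was lowest in PAF knockout library 2, as was its neighbour Cldn4. It read 453 and 478 FPKM in control libraries, 354 in PAF knockout library 1 and 218 in PAF knockout library 2. Both knockouts were lower, at 76.0% and 46.9% of the control mean, with a log2 fold change of -0.74 (SE 0.313, 95% interval -1.63 to 0.14; limma adjusted p = 0.418). Without PAF knockout library 2 it was -0.39. The end of Cldn3 overlaps the long noncoding gene Wbscr25 in RefSeq, which read at most 1.14 FPKM, and without a stated strand reads of that stretch cannot be told apart.

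Cldn7 (row CLDN7), which lines the lateral membrane as well as the tight junction and binds the adhesion protein EpCAM, lay within a narrow range. It read 505 and 472 FPKM in control libraries and 477 and 428 in knockout libraries, so that the groups overlapped. The log2 fold change was -0.11 (SE 0.202), and its 95% interval from -0.68 to 0.46 still allows changes in either direction (limma adjusted p = 0.783).

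The remaining sealing claudins were scarce. Cldn1 (row CLDN1), needed for the water barrier of skin, read 2.31 and 1.605 FPKM in control libraries and 1.23 and 0.601 in knockout libraries. Both knockouts were lower, with a log2 fold change of -0.64 (SE 0.300; limma adjusted p = 0.449). It was -0.40 without PAF knockout library 2, and -1.07 and -1.15 with pseudocounts of 0.1 and 0.01 in place of 1. Cldn8 (row CLDN8), known from the distal colon and the collecting duct of the kidney, read 1.69 and 1.44 FPKM in control libraries, 0.358 in PAF knockout library 1 and 1.92 in PAF knockout library 2. The knockout libraries stood on either side of the controls. With about 13 fragments (95% Poisson interval 6.92 to 22.2) in PAF knockout library 1 and about 109 (89.5 to 131) in PAF knockout library 2, the gap between them exceeded counting error, which is all that these intervals cover. The log2 fold change of -0.36 (SE 0.457; limma adjusted p = 0.698) turned to 0.19 without PAF knockout library 1, and it was -0.79 and -0.90 with pseudocounts of 0.1 and 0.01.

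Cldn23 and Cldn12 differed from the controls in opposite directions. Cldn23 (row CLDN23), a claudin of differentiated intestinal surface cells, read 31.7 and 28.6 FPKM in control libraries and 22.9 and 15.6 in knockout libraries. Cldn12 (row CLDN12), which lacks the usual C-terminal motif for binding scaffold proteins, read 13.7 and 13.5 FPKM in control libraries and 15.8 and 24.6 in knockout libraries. Their groups did not overlap, with log2 fold changes of -0.64 (SE 0.245; limma adjusted p = 0.391) and 0.51 (SE 0.263; limma adjusted p = 0.467). PAF knockout library 2 was the farther from the controls for both genes, and without it the values were -0.38 and 0.21.

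**Figure D2:**
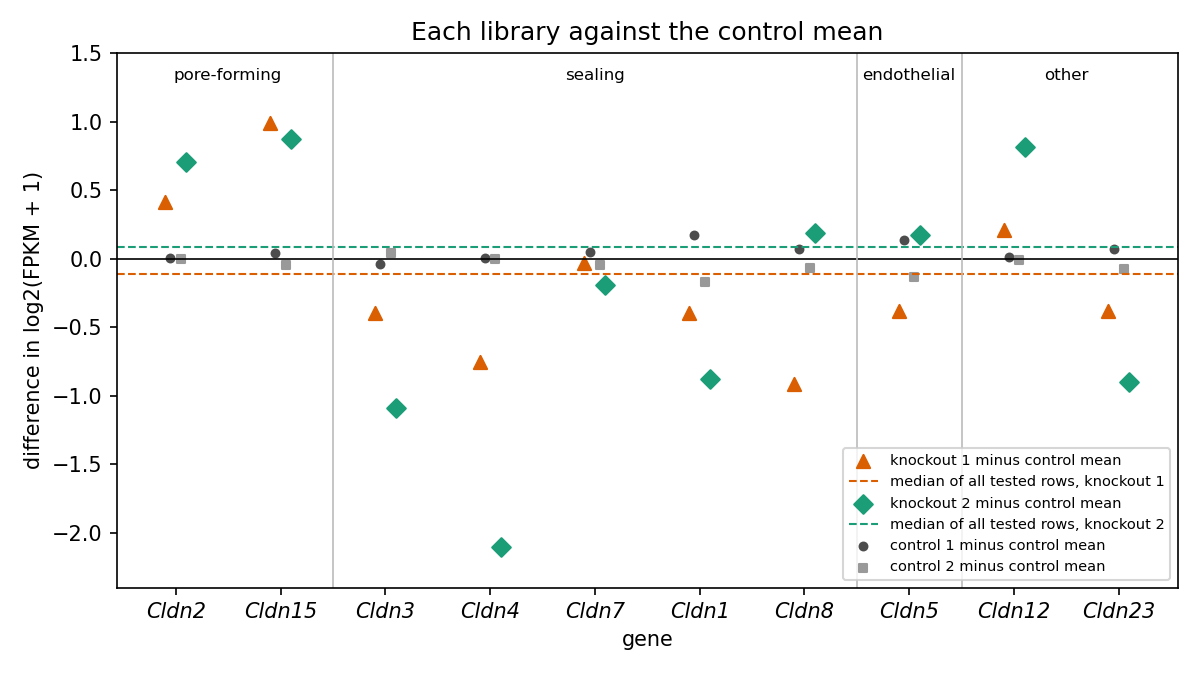
Difference of each library from the control mean in log2(FPKM + 1), by claudin group, with dashed lines at the median of all tested rows in each knockout library (-0.11 and 0.09). Cldn2 and Cldn15 lie above 0 in both knockouts and Cldn3, Cldn4, Cldn1 and Cldn23 below, while Cldn8 and Cldn5 have a knockout library on either side.

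The balance of pore-forming to sealing transcripts was higher in both knockout libraries. Cldn2 and Cldn15 together made up 14.9% of the FPKM of the 10 genes in each control library, 24.8% in PAF knockout library 1 and 36.2% in PAF knockout library 2. The sealing claudins made up 82.6% and 82.8% in the controls and 72.8% and 60.6% in knockout libraries. In FPKM, the pore-forming sum read 284 and 281 in the controls and 407 and 471 in knockout libraries, and the sealing sum read 1573 and 1559 against 1193 and 789. The pore-forming sums were higher and the sealing sums lower in both knockouts, with no overlap between the groups. The total of the 10 genes was lower in knockout libraries, at 1640 and 1302 FPKM against 1905 and 1884.

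On the log2 scale, the mean level of the pore-forming claudins minus that of the sealing claudins was 0.70 and 0.76 in the controls, 1.93 in PAF knockout library 1 and 2.335 in PAF knockout library 2. The groups did not overlap, and their means differed by 1.401, against a pooled within-group SD of 0.204 (n = 2 per group). The value was 1.199 without PAF knockout library 2 and 1.603 without PAF knockout library 1. It is given as a description with no test, because the claudins were grouped with earlier results known. Each sealing claudin counts alike in its mean, so Cldn1 and Cldn8, at 1.44 and 1.36 FPKM on average, weigh as much as Cldn4. The ratio of Cldn2 to Cldn4 was 0.387 and 0.389 in the controls, 0.871 in PAF knockout library 1 and 2.74 in PAF knockout library 2, where Cldn2 exceeded Cldn4. Within the pore-forming group, the ratio of Cldn15 to Cldn2 was 0.202 and 0.190 in the controls and 0.295 and 0.222 in knockout libraries.

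**Figure D3:**
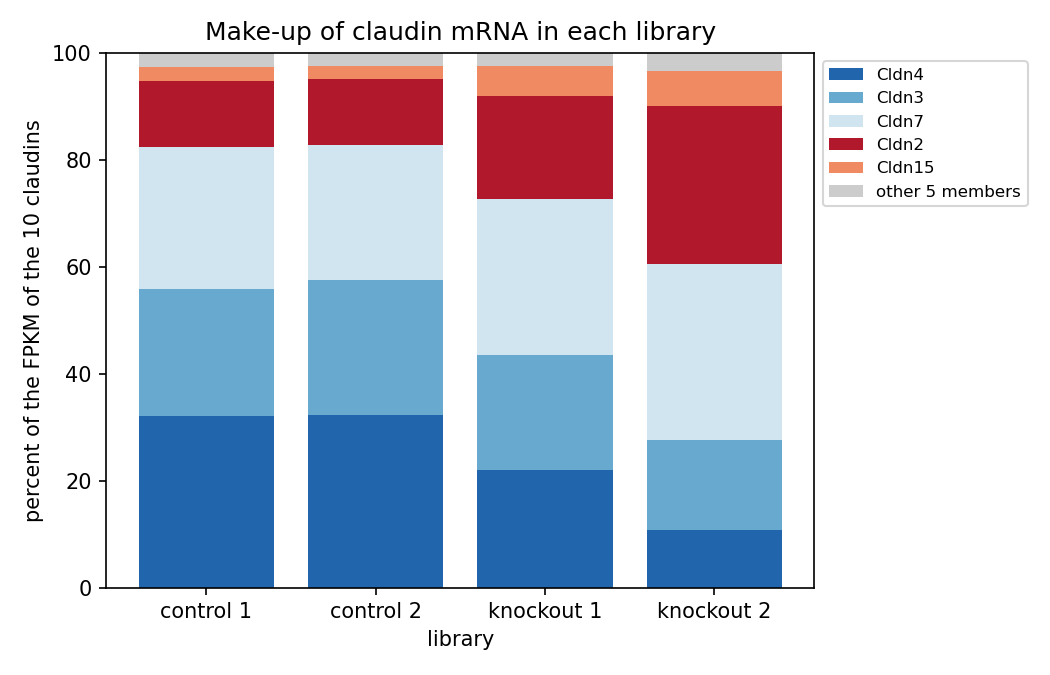
Percent of the summed FPKM of the 10 claudins held by each gene in each library, with blue for the sealing Cldn4, Cldn3 and Cldn7, red and orange for the pore-forming Cldn2 and Cldn15 and grey for the other 5 genes. Cldn4 made up 32.1% and 32.2% in the controls and 22.0% and 10.8% in knockout libraries, and Cldn2 12.4% and 12.5% against 19.2% and 29.6%.

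Marker levels of several cell types differed between libraries, and in bulk tissue fewer cells of a type and less RNA per cell cannot be told apart. Epcam, an epithelial adhesion gene, read 1006 and 946 FPKM in control libraries and 945 and 1342 in knockout libraries, a log2 fold change of 0.21. Set against Epcam, the differences were -1.64 for Cldn4, -0.95 for Cldn3, 0.35 for Cldn2 and 0.72 for Cldn15 on the log2 scale. This takes the same 0.21 from each claudin, so only a smaller positive difference could have changed sign. None of the 10 claudins had such a difference, so their unchanged signs are no check. All 8 markers of absorptive enterocytes were tested, and their sum read 7729 and 8316 FPKM in control libraries, 12110 in PAF knockout library 1 and 899 in PAF knockout library 2. Stromal sums went the other way in PAF knockout library 2. The 6 fibroblast markers summed to 262 and 266 FPKM in control libraries, 333 in PAF knockout library 1 and 685 in PAF knockout library 2, and the 6 smooth muscle markers to 189, 190, 201 and 725. Leukocyte markers, 6 of 6 tested, summed to 62.3 and 54.9 FPKM in control libraries and 65.1 and 186 in knockout libraries. No marker of these lists was listed at 0 in any library. The part of these shifts in the claudin levels was not tested.

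Over all rows 0 genes of these marker lists passed in limma, and at an unadjusted p under 0.05, as for 13.2% of all rows, there were 1 fibroblast and 2 enterocyte genes. Counts of genes with no overlap between groups are read against 21.5% of all tested rows higher and 30.2% lower. Of 8 absorptive enterocyte markers 0 were higher and 3 lower without overlap, and the list's median was 0.88 in PAF knockout library 1 and -2.36 in PAF knockout library 2. The 3 lower genes were the hydrolases Sis (log2 fold change -1.45) and Anpep (-2.54) and the fatty acid carrier Fabp2 (-1.19), also the genes of smallest p. In PAF knockout library 1 they stood at 40.8%, 36.4% and 67.4% of control, although the sum of the list was higher there. Of 7 epithelial markers 2 were higher and 2 lower. These counts became 0 and 2 under quantile scaling, but 3 and 1 with libraries centred on their medians. The medians of the list were -0.039 and -0.0065 in the knockout libraries. Those of smallest p were Krt19 (0.40), Krt8 (0.33) and Cdh1 (-0.21). Of 6 fibroblast markers 6 were higher, with medians of 0.29 in PAF knockout library 1 and 1.45 in PAF knockout library 2, among them the matrix genes Col1a1 (0.58), Lum (1.68) and Col3a1 (1.002). Of 6 smooth muscle markers 5 were higher, with medians of 0.18 and 2.16, so that PAF knockout library 2 carried most of the difference of the contractile genes Myh11 (1.58), Acta2 (0.89) and Tagln (1.32). Of 6 leukocyte markers 3 were higher and 1 lower, with medians of -0.029 and 1.26, and the genes of smallest p were the myeloid integrin Itgam (0.83), the T cell gene Cd3e (-0.63) and the B cell gene Cd79a (0.74).

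**Figure D4:**
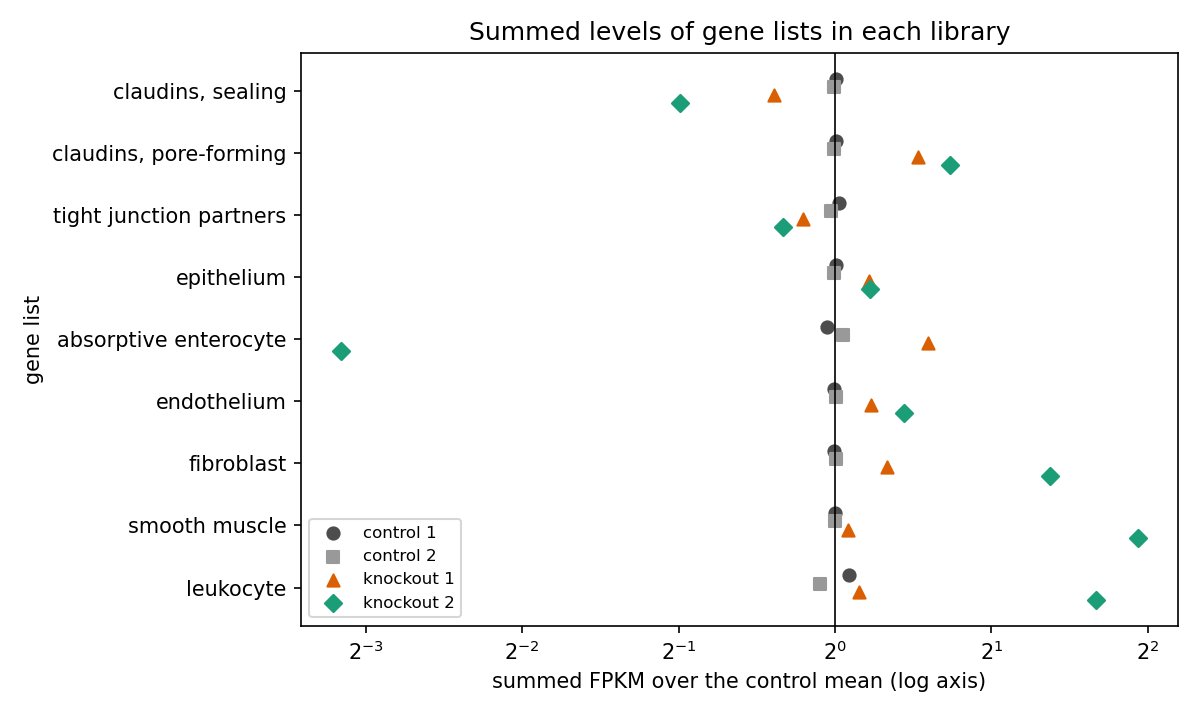
Summed FPKM of claudin groups and of gene lists in each library, divided by the control mean (log axis). Sealing claudins lie left and pore-forming claudins right of 1 in both knockouts. The sum of absorptive enterocyte markers lies right of it in PAF knockout library 1 and far left in PAF knockout library 2.

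Cldn5 (row CLDN5), which seals endothelium and is best known from the blood-brain barrier, was scarce and showed no shared direction. It read 1.76 and 1.28 FPKM in control libraries, 0.931 in PAF knockout library 1 and 1.82 in PAF knockout library 2. The groups overlapped, with a log2 fold change of -0.11 (SE 0.304, 95% interval -0.97 to 0.76; limma adjusted p = 0.870), which was 0.17 without PAF knockout library 1 and 0.032 without control library 1. With pseudocounts of 0.1 and 0.01 it was -0.19 and -0.21. About 33, 32, 20 and 62 fragments stood behind these values, and the 95% Poisson interval of PAF knockout library 1, 0.559 to 1.41 FPKM, overlapped those of both controls.

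Among 14 other endothelial genes, all tested, 11 had both knockout values above both control values, as 21.5% of tested rows did, and 2 were lower, as 30.2% did, while 0 passed over all rows (limma; 5 had an unadjusted p under 0.05, as 13.2% of all rows did). Their median log2 fold change was 0.40 and their sum read 122 and 123 FPKM in control libraries and 143 and 166 in knockout libraries. The genes of smallest p were Flt1, a VEGF receptor, at 15.7 and 15.2 against 8.68 and 8.03 FPKM, Emcn, a surface sialomucin, at 5.34 and 6.19 against 10.9 and 13.2, and Tek, an angiopoietin receptor, at 0.689 and 0.808 against 2.68 and 4.06. Pecam1, an adhesion molecule of endothelium, read 12.3 and 12.4 against 16.2 and 29.5 FPKM. Cdh5, the cadherin of endothelial junctions, read 26.3 and 27.6 FPKM in control libraries, 25.9 in PAF knockout library 1 and 12.4 in PAF knockout library 2. The part of endothelial content in the Cldn5 level was not tested.

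Other claudins contributed little. Of the 13 further claudin rows, 11 averaged under 1 FPKM, none above 0.871 FPKM in any library, and 4 were listed at 0 in every library. Cldn6, a claudin of embryonic epithelia, read 5.60 and 6.48 FPKM in control libraries and 1.46 and 0.148 in knockout libraries, with a log2 fold change of -2.07 (SE 0.444; unadjusted p = 0.0108, limma adjusted p = 0.284). Both knockouts were far below both controls. Cldn18, a claudin of stomach and lung, read 2.62 and 2.86 FPKM in control libraries, 11.7 in PAF knockout library 1 and 3.35 in PAF knockout library 2, so that a single library carried most of its log2 difference of 0.995 (SE 0.585; limma adjusted p = 0.506).

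Transcripts of many partners of claudins at the junction also read lower. Of 28 tested genes for tight junction scaffolds, receptors and regulators, 15 had both knockout values below both control values and 3 had them above, against 30.2% and 21.5% of all tested rows. The median log2 fold change was -0.20, with -0.28 in PAF knockout library 1 and -0.15 in PAF knockout library 2. With libraries centred on their medians the counts were 14 and 4. In limma 0 passed over all rows and 6 had an unadjusted p under 0.05, as 13.2% of all rows did. Those of smallest p were Mylk, a kinase that contracts the actomyosin ring, at 38.8 and 37.4 FPKM in control libraries and 69.8 and 87.2 in knockout libraries, Amotl1, an angiomotin family member, at 14.7 and 14.9 against 9.04 and 7.71, and Lsr, a receptor of tricellular junctions, at 321 and 313 against 206 and 155. Mylk is also abundant in smooth muscle, whose markers had the medians given above, and the part of smooth muscle in its level was not tested. Tjp1, which encodes the scaffold ZO-1, read 37.1 and 35.1 FPKM against 28.9 and 27.9, a log2 fold change of -0.34 (SE 0.151; limma adjusted p = 0.437). Ocln, which encodes occludin, read 27.9 and 25.7 against 25.3 and 33.5 FPKM and overlapped.

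Adherens junction and desmosome genes, 15 tested, had a median log2 fold change of -0.15. Of these, 6 were lower and 2 higher without overlap, near the shares of all tested rows (30.2% and 21.5%), and 0 were past the threshold over all rows or at an unadjusted p under 0.05 (limma). Cdh1, which encodes E-cadherin, read 334 and 325 FPKM in control libraries and 283 and 289 in knockout libraries. The genes of smallest p were Dsc2, a desmosomal cadherin, at 58.7 and 54.8 against 72.5 and 105 FPKM, Jup, which encodes plakoglobin, at 238 and 230 against 181 and 90.5, and Nectin2 (row PVRL2), an adhesion receptor, at 117 and 116 against 97.9 and 52.3. Factors known to act on junction genes, 16 tested, had a median of -0.021, which became 0.036 with libraries centred on their medians, and 0 passed over all rows (limma; 1 had an unadjusted p under 0.05, as 13.2% of all rows did). Of these factors, 6 were lower and 3 higher without overlap, near the shares of all tested rows, and 4 and 5 with that centring. Smallest in p were Gata6, Klf4 and Grhl2. Gata6 read 43.3 and 39.5 FPKM against 30.4 and 26.7, and Klf4, a factor of differentiated epithelium, 77.4 and 73.7 against 58.9 and 35.1. Grhl2, an activator of epithelial junction genes, read 11.2 and 12.1 against 7.74 and 9.50.

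Among 12634 other tested protein-coding rows, those nearest to a claudin in their centred log2 levels over the 4 libraries were listed as a description. Nearest to Cldn2 were Rbm25, Trim12a and Gimap1, with distances of 0.0124, 0.023 and 0.0247 on the log2 scale. Nearest to Cldn15 were Cpxm1, Abcc3 and Dysf (0.0136, 0.0437 and 0.0524), and nearest to Cldn5 were Zfp933, Hist2h2be and Zfp622 (0.0137, 0.023 and 0.0374). Abcc3, an export pump for organic anions, read 8.65 and 8.05 FPKM in control libraries and 17.1 and 15.5 in knockout libraries. This likeness rests on 4 libraries and describes their order and spacing only.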

How the data were processed

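mRNA of 4 small intestinal adenoma libraries, 2 per group, was analysed. The authors deposited FPKM values with a column per library, per the file headers. The submitters' processing notes name TopHat2, Cuffdiff and the mouse build mm9, with no version or annotation stated. Of 29955 rows, 84 repeated a symbol and the row of higher mean was kept. The test used the 13716 rows averaging 1 FPKM or more, all 10 claudins among them, and limma (3.58.1, under R 4.3.3) with a variance trend on log2(FPKM + 1), and p-values were adjusted by Benjamini-Hochberg over all tested rows with a threshold of 0.05. The labels name no animals behind the libraries, so p-values measure only the spread between these libraries. Fold changes on this scale understate changes of low genes.

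Depth was estimated from FPKM times length of genes with 1 GENCODE transcript of at least 1000 bases. The worth of 1 fragment was sought only within a fixed range, from 110 to 184 values a library. A depth outside that range could not have been found. Fragment numbers and their 95% Poisson intervals rest on this estimate and are approximate. The fit was tested on simulated data, where it recovered few changes of the size fitted for the claudins. A claudin that was not called is therefore not shown to be unchanged. The claudins and lists were chosen with earlier results of these data known. Named genes were the 10 claudins, other claudins averaging at least 1 FPKM, the PAF row, 6 fixed junction and marker genes and the 3 of smallest p in each list; Abcc3, Xist, Eif2s3y and Wbscr25 were named after their values were seen. The motifs were also chosen then. Alternatives were other pseudocounts, filters, scalings and variance models, summed repeats, each library left out, a replicate block and other sealing groups. The crossed block and the levels relative to Epcam were not planned and were added later.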

Additional observations from a re-analysis of the deposited data

How the results depend on the processing

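The count of called rows, 10 over the whole table, was 4 with no filter on low values and ranged from 0 to 8397 when a library was left out. It was 0 without either control library, 8397 without PAF knockout library 1 and 2833 without PAF knockout library 2, where the lone library is assumed to vary like the controls. Replicate numbers in the titles are not said to pair animals, and deviations of same-numbered libraries correlated at -0.115 across rows. With the number as a block the count was 13, and with crossed numbers, added after that correlation was seen, also 13. Neither block called a claudin. The difference in pore-forming minus sealing level, 1.401, was 1.62 with a pseudocount of 0.01 and between 1.199 and 1.603 with a library left out. It was 1.232 with Cldn12 and Cldn23 counted as sealing and 1.537 without Cldn7. A sealing group limited to means of at least 1 FPKM lost no gene, so that setting could not change the value. The log2 fold changes of the claudins kept their sign under the other pseudocounts and scalings. The other filters, the other variance model, summed repeats and both blocks left these fold changes as they were, so no sign could turn there. Levels relative to Epcam, not a planned setting, could not turn a sign either, for the reason given above. Signs turned in 3 cases: Cldn5 read 0.032 without control library 1 and 0.17 without PAF knockout library 1, and Cldn8 read 0.19 without PAF knockout library 1; with a library left out, Cldn5 ranged from -0.38 to 0.17 and Cldn8 from -0.92 to 0.19. Adjusted p-values under 0.05 for claudins came up only in fits with a single knockout library. With a filter at 5 FPKM, Cldn1, Cldn5 and Cldn8 could not be fitted. The cause of these changes was not tested. Depth limits Cldn5 and Cldn8, with 13 to 109 fragments a library, more than Cldn3 and Cldn4, with at least 6148.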
